A study of Mus musculus with 7 samples.

Results

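Genes for protein synthesis, tRNA charging and ribosome making were compared between sorted bone marrow cells of young and old mice. The set holds 31 of the 769 gene models that the authors' deposited table lists. They were selected on their symbols: those that start with Eif, Eef, Polr1, Polr3, Nop, Nol, Noc, Utp, Rrp, Ddx, Trmt or Nup followed by a digit, the aminoacyl-tRNA synthetase symbols, and Gtf3a and Rexo4. A gene model could enter only if it was listed, and the table was itself selected on the adjusted p of the old against young contrast, with 0.0993 as its largest value. Every fold change and adjusted p below is therefore a description of genes chosen by that same contrast, and supports nothing beyond it.

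Libraries were made from lineage-negative, Sca1-negative cells positive for cKit, CD150 and CD41, which the labels call megakaryocyte progenitors, the precursors of platelet-forming megakaryocytes. The young group had 3 libraries from mice aged 3 months and the old group 4 libraries from mice aged 18 to 20 months. All mice were offspring of Flt3-Cre and mTmG parents on a background labelled C57BL/6 (C57BL/7 for 1 old library). Flt3-Cre acts in cells that pass through a Flt3-expressing stage and switches the mTmG reporter from red to green. The protocols name both the Tom+ and the GFP+ fraction as sorted. Young titles share 1 prefix, mkpgy, and old titles have 2 prefixes, mkpgo and mkpto, with 2 libraries each. The prefixes are not explained, so age and the kind of title cannot be told apart. The old mean may thus mix kinds of cells that the young mean does not. The labels do not tell whether each library had its own mouse, so the variation behind the p-values may be technical. The deposited table also gives a mean over 14 samples, which include samples not analysed here. Whether the authors' SEs, p-values and scaling were fitted over those samples too is not stated. The p-values therefore cannot be tied to the variation among these libraries alone. The header of the old column names a group that matches no single title prefix, and the file does not say which libraries it covers. It was read as the mean of all 4 old libraries, and every old mean and fold change below rests on that reading. The deposited values are group means of normalized counts, so no value per library is given here and depth is unknown.

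Of 18 megakaryocyte markers only Selp was listed, so the cell type could not be checked against its defining genes. Selp, which encodes P-selectin, rose from 496 to 2358 normalized counts (log2 fold change 2.25, SE 0.68, adjusted p = 0.0304) per the authors' deposited table. Of the other lineages, 15 of 20 granulocyte and monocyte markers were listed, all higher in old, and the sum of their mean normalized counts went from 5482 in young to 96666 in old per the authors' deposited table. Much of the old sum came from Ngp (36140), Ltf (19916) and Lyz2 (13811). The SEs of their log2 fold changes were 1.38, 1.47 and 0.53 per the authors' deposited table. With group means only, how evenly the old libraries share this rise is not known. Erythroid (2 of 10), lymphoid (2 of 10) and stem cell markers (3 of 10, of which 2 passed) were also listed as higher in old. Markers that are not listed have no value here, so none can be given as 0. The part of these markers in the results below was not tested. In bulk RNA, fewer cells of a type and less RNA per cell cannot be told apart.

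A ribosome is built from ribosomal RNA (rRNA), which RNA polymerase I transcribes in the nucleolus, from 5S rRNA, which RNA polymerase III makes with the help of TFIIIA, and from imported ribosomal proteins. Assembly factors and RNA helicases cut, modify and fold the precursor RNA before the subunits leave through nuclear pores. Initiation factors then bring the subunits, the initiator tRNA and the mRNA together, while aminoacyl-tRNA synthetases load each tRNA with its amino acid. Megakaryocyte progenitors grow into very large polyploid cells.

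In the old libraries 16 of these genes were lower at an adjusted p under 0.05 and 0 were higher per the authors' deposited table (DESeq). Over all 11778 gene models in the authors' adjustment, 1.57% were lower and 2.56% higher at that limit. At the table's own limit of 0.1, 30 members were listed as lower and 1, Eif4e3, as higher. Over all gene models the shares were 2.86% and 3.67%. These counts and shares do not compare directly, since members were taken from listed gene models only. Of 235 annotated genes that match the symbol rule, 13.2% were listed, and how many of them were tested is not known. Eif4e3 was also the 1 member listed as higher with an unadjusted p under 0.05. Gene models outside the table have no p here. The 30 lower members had a median log2 fold change (old over young) of -0.74, with quartiles of -0.86 and -0.59, and the 307 other lower gene models had a median of -0.69, with quartiles of -0.82 and -0.56, per the authors' deposited table. Old means of the 30 genes were 48.0% to 73.2% of the young means, with a median of 59.8%. Their summed mean went from 100721 to 59668 normalized counts, or to 59.2%.

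The differences were modest in size and close to each other. Only 2 of the 30 genes, Nup37 and Yars, had a log2 fold change of -1 or below per the authors' deposited table. The SD of the log2 fold change over the 30 genes was 0.16, and the median standard error (SE) of a single gene was 0.21. Of the 30 genes, 23 lay within 1 SE of their shared median. Selection on adjusted p narrows this range, since genes with smaller changes were not listed.

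The members sat among the abundant genes of the table. Their median young mean was 1970 normalized counts, and 24 of the 30 lower members had a young mean of at least 1000. Lower gene models in general had a young median of 2147, so this level was shared with the others that were lower. Gene models listed as higher had a young median of 34.9.

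**Figure D1:**
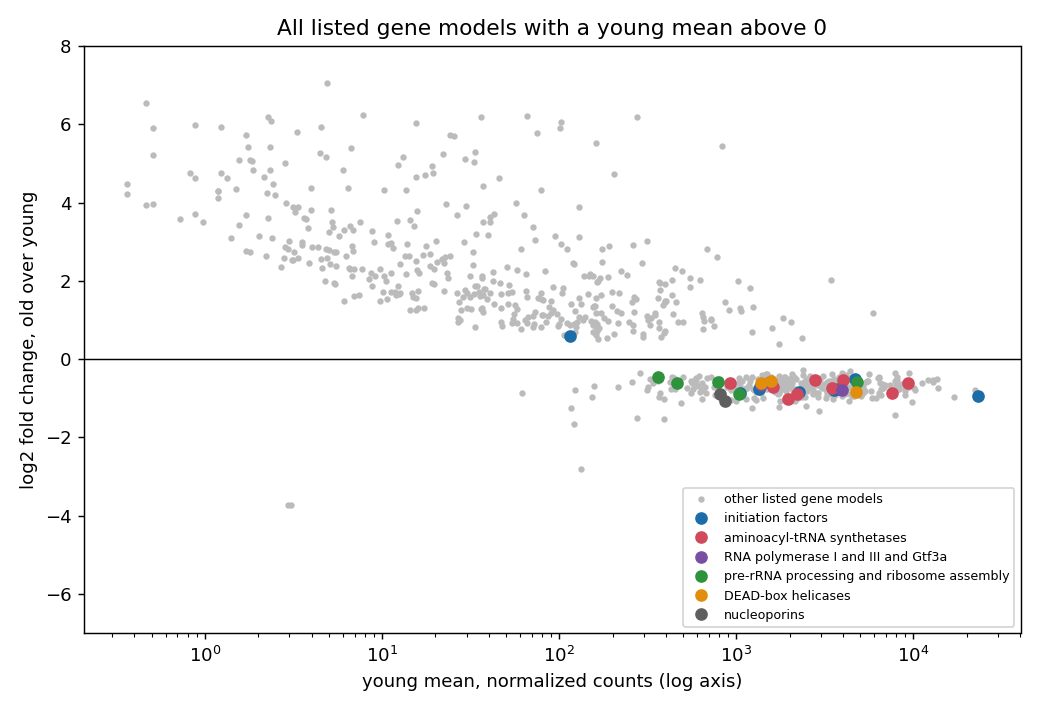
Young mean in normalized counts (log axis) against the authors' log2 fold change, old over young, for the 759 listed gene models with a young mean above 0. Grey points are other gene models and 30 members are coloured by role; 29 of these lie in the band of abundant genes below 0, and Eif4e3, at a young mean of 114, lies above it.

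These counts were also taken under other scalings. The authors' size factors gave 62.0% of all calls as higher. When each group's means were divided by the sum of its listed means, which added 0.23 to every log2 fold change, 3 members (Gtf3a, Rexo4 and Nup107) passed as lower and 1 (Eif4e3) as higher, and 96.7% of all calls were higher. When all fold changes were recentred by the common shift of -0.36 fitted to the other lower gene models, Gtf3a and Nup107 passed as lower, Eif4e3 as higher, and 98.3% of all calls were higher. No lower member could change sign, since the smallest change, -0.46 in Nol6, exceeds both constants in size. Both settings rest on listed gene models only, which the same contrast selected. The common shift was fitted to gene models listed as lower, so recentring by it had to cost lower calls. Neither setting can show how far the authors' scaling is off. What is lower here is a level relative to the authors' scaling, and the share due to scaling was not tested.

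The number of listed genes is given for each role, and no difference between roles was tested. Over all 11778 gene models in the authors' adjustment, 2.86% were listed as lower and 3.67% as higher. The role counts below are out of annotated genes instead, with 8.1% of DEAD-box helicases and 9.5% of nucleoporins listed. The annotation holds 235 protein-coding genes that match the symbol rule, of which 13.2% were listed. Synthetases had 9 of 37 genes listed, initiation factors 9 of 55, polymerase genes with Gtf3a 3 of 16, pre-rRNA processing and assembly factors 5 of 40, nucleoporins 2 of 21 and DEAD-box helicases 3 of 37. None of the 13 elongation factor genes (Eef) and none of the 16 tRNA methyltransferase genes (Trmt) was listed, nor any of the 3 Noc or 8 Rrp genes. How many of the unlisted genes entered the authors' test is not known, and absence from the table does not show that a gene did not differ.

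**Figure D2:**
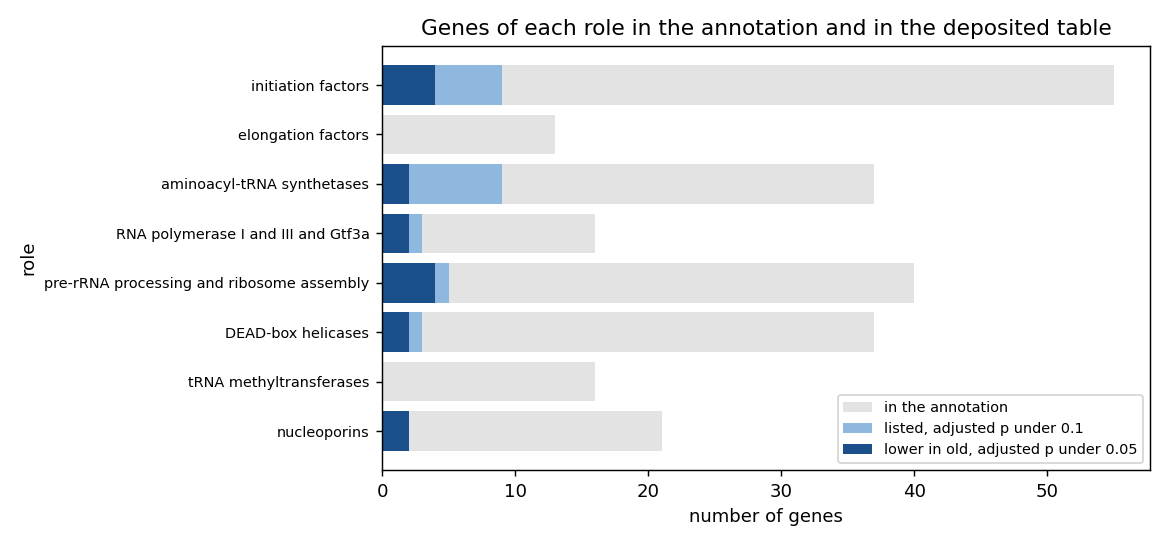
Number of genes of each role in the annotation (grey), listed at an adjusted p under 0.1 (light blue) and lower in old at an adjusted p under 0.05 (dark blue), drawn from a common 0. The listed genes range from 0 of 13 elongation factors to 9 of 37 synthetases.

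By the median of their members, these 5 role groups had young means from 785 normalized counts (pre-rRNA processing and assembly) and 840 (nucleoporins) over 1569 (DEAD-box helicases) and 2272 (initiation factors) to 2786 (synthetases). The old mean as a share of the young mean had a median of 51.0% in nucleoporins, 58.8% in initiation factors, 60.9% in synthetases, 65.7% in DEAD-box helicases and 66.9% in pre-rRNA factors. The corresponding median log2 fold changes per the authors' deposited table ran from -0.97 in nucleoporins to -0.58 in pre-rRNA factors. With 2 to 9 genes a role and an SE of 0.10 to 0.35 for a single gene, this order is a description, and no difference between roles was tested.

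**Figure D3:**
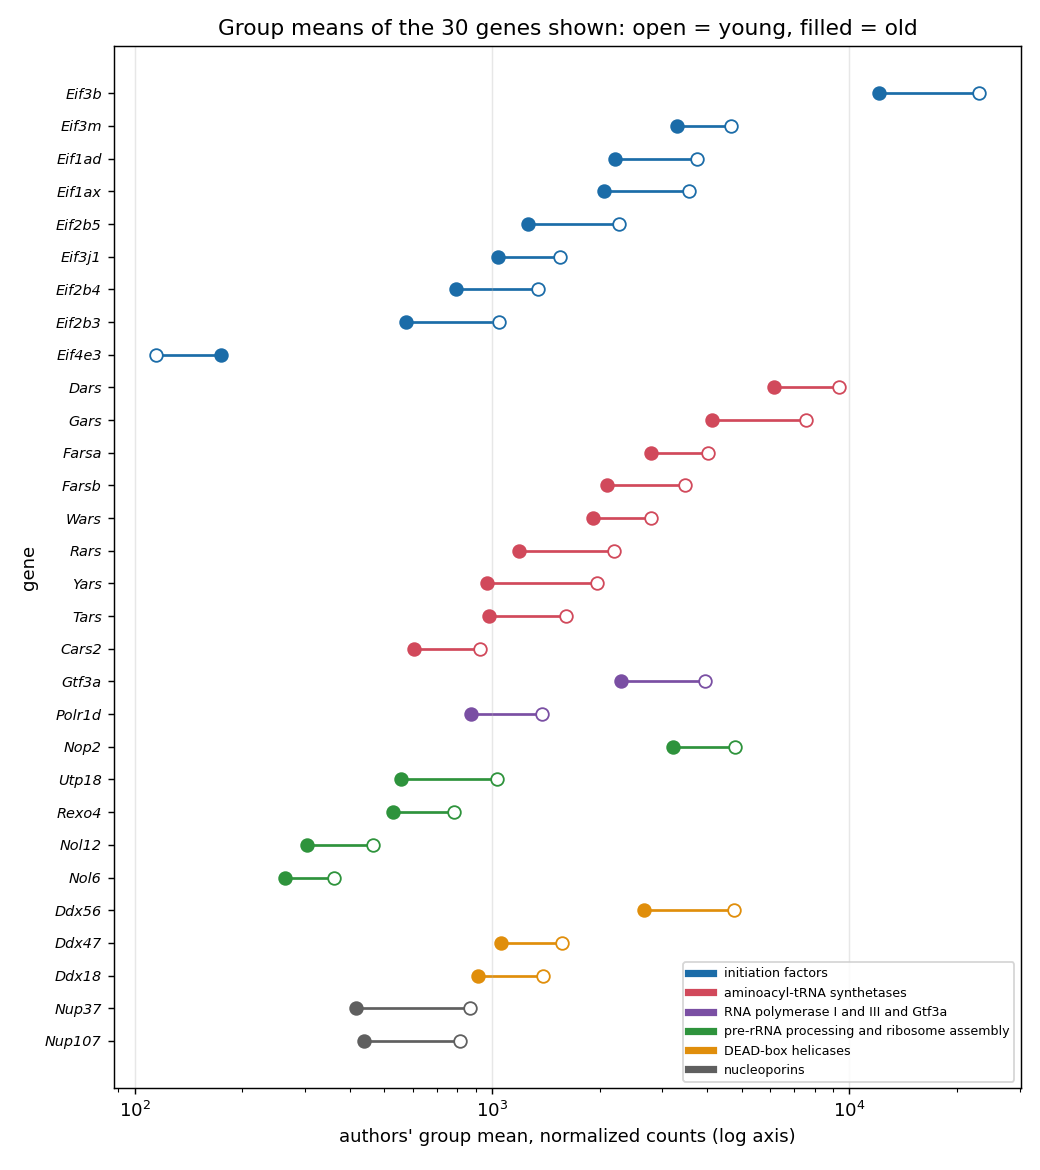
Authors' mean normalized count of each of 30 members in young (open circles) and old (filled circles) on a log axis, ordered by young mean within each role. In 29 genes the old mean lies to the left of the young mean, and in Eif4e3 to the right.

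Among initiation factors 4 of the 9 listed genes fell, 4 more were listed as lower without passing, and Eif4e3 was listed as higher. Eif3b, the scaffold subunit of eIF3, the large complex that binds the small ribosomal subunit, fell from a mean of 23112 to 12118 normalized counts (log2 fold change -0.93, SE 0.28, adjusted p = 0.0268) per the authors' deposited table. Its young mean was the highest of all 769 listed gene models. Eif3j1, a loosely bound eIF3 subunit, fell from 1549 to 1040 (-0.58, SE 0.17, adjusted p = 0.0208) per the authors' deposited table. Eif3m, another eIF3 subunit, had 4662 and 3295 (-0.50, SE 0.18) per the authors' deposited table and did not pass. Thus 3 of the 14 eIF3 genes were listed, all 3 as lower, beside 2.86% of all gene models in the authors' adjustment. This complex and those counted below were chosen after the data were seen. Per kilobase of annotated exon, the young levels of the listed eIF3 subunits were 6907 for Eif3b, 1800 for Eif3m and 266 normalized counts for Eif3j1. The order was the same in old, at 3622, 1272 and 178. On GRCm38 Eif3b lies at chr5:140419328-140443360 (plus strand), Eif3j1 at chr2:122028546-122056598 (plus strand) and Eif3m at chr2:104999656-105017080 (minus strand).

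The guanine nucleotide exchange factor eIF2B reloads eIF2 with GTP so that it can deliver the next initiator tRNA, and stress kinases block this step by phosphorylating eIF2. Of its 5 subunit genes 3 were listed, all as lower, and 1 passed. Over all gene models in the authors' adjustment, 2.86% were listed as lower. The delta subunit gene Eif2b4 fell from 1344 to 795 normalized counts (-0.76, SE 0.21, adjusted p = 0.0128) per the authors' deposited table. Eif2b5, the catalytic epsilon subunit, was listed just outside the limit at 2272 and 1263 (-0.85, SE 0.28, adjusted p = 0.0525) per the authors' deposited table. Eif2b3, the gamma subunit, had 1048 and 574 (-0.87, SE 0.31) per the authors' deposited table. The 3 subunits thus had fold changes within 1 SE of each other. None of the 4 genes of eIF2 itself was listed. On GRCm38 Eif2b4 lies at chr5:31187558-31193430 (minus strand), Eif2b5 at chr16:20498817-20509323 (plus strand) and Eif2b3 at chr4:117019402-117087306 (plus strand).

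Eif1ad, which carries an eIF1A-like domain, fell from 3750 to 2204 normalized counts (-0.77, SE 0.24, adjusted p = 0.0422) per the authors' deposited table. Eif1ax encodes eIF1A, which helps the small subunit scan for the start codon, and had 3564 and 2059 (-0.79, SE 0.28) per the authors' deposited table without passing. Eif4e3, an atypical member of the eIF4E family that binds the mRNA cap, was the exception, at 114 in young and 174 in old (0.60, SE 0.22, adjusted p = 0.0992) per the authors' deposited table. It had the lowest young mean of the 31 genes, and it was the only listed gene of 7 that encode the cap-binding eIF4F subunits and their paralogs. The 14-sample mean of Eif4e3, which also covers samples not analysed here, was 304 and exceeded both group means. On GRCm38 Eif1ad lies at chr19:5366741-5371526 (plus strand), Eif1ax at chrX:159372178-159389928 (plus strand) and Eif4e3 at chr6:99625135-99666771 (minus strand).

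The promoter of Eif2b4 is shown because it carries the ETS core CCGGAAG, with its first base at 2 from the RefSeq start. These letters were in 15 of the 25 members with a promoter sequence. They were also in 29.8% of the other lower listed genes and in 12.9% of all genes with a promoter. Sequences here are from RefSeq on GRCm38.p6 and run 5′ to 3′ on the gene's strand from 200 bases before the start to 20 after it, with the motif in capitals. The Eif2b4 window is chr5:31193120-31193339, minus strand. RefSeq starts can differ from the GENCODE gene ends given here, and this window lies inside the GENCODE range of Eif2b4.
Eif2b4: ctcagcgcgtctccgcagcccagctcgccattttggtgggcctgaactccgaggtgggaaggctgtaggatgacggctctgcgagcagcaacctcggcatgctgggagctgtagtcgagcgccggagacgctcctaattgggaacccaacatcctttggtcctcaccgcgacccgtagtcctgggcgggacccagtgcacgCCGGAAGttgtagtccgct

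All 9 listed aminoacyl-tRNA synthetase genes were listed as lower in old, and 2 of them passed. Rars, which charges arginine tRNA, fell from 2195 to 1193 normalized counts (-0.88, SE 0.28, adjusted p = 0.0428) per the authors' deposited table. Farsa, the alpha subunit of phenylalanyl-tRNA synthetase, fell from 4024 to 2794 (-0.53, SE 0.14, adjusted p = 0.0114) per the authors' deposited table. Its partner Farsb, the beta subunit, had 3460 and 2095 (-0.72, SE 0.24, adjusted p = 0.0525) per the authors' deposited table. Both subunits of this enzyme were therefore listed, with fold changes that differ by less than the SE of Farsb. On GRCm38 Rars lies at chr11:35808381-35834506 (minus strand), Farsa at chr8:84856989-84869257 (plus strand) and Farsb at chr1:78417975-78488897 (minus strand).

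The other 6 synthetases did not pass. Tyrosine-charging Yars had 1970 in young and 971 in old (-1.02, SE 0.35, adjusted p = 0.0704) per the authors' deposited table, the largest change among synthetases. Glycine-charging Gars had 7570 and 4131 (-0.87, SE 0.31), and threonine-charging Tars had 1614 and 982 (-0.72, SE 0.25), per the authors' deposited table. Dars, for aspartate, had the highest young mean of the group, with 9340 and 6158 (-0.60, SE 0.20) per the authors' deposited table. Wars, for tryptophan, had 2786 and 1923 (-0.53, SE 0.19) per the authors' deposited table. Cars2, the mitochondrial cysteine enzyme, had 927 and 605 (-0.61, SE 0.20, adjusted p = 0.0525) per the authors' deposited table. On GRCm38 Yars lies at chr4:129189760-129219607 (plus strand), Gars at chr6:55038007-55079500 (plus strand), Tars at chr15:11382301-11399665 (minus strand), Dars at chr1:128363707-128417368 (minus strand), Wars at chr12:108860030-108894174 (minus strand) and Cars2 at chr8:11513977-11550783 (minus strand).

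The listed synthetases were mostly cytosolic. Of 20 synthetase symbols without the suffix 2, 8 were listed, and of 17 with it, most of them mitochondrial enzymes, 1 was. Dars and Rars belong to the multi-synthetase complex, and were 2 of its 11 genes, while its scaffold genes Aimp1 and Aimp2 were not listed. Yars, Gars, Tars and Wars act outside it. Synthetase genes are textbook targets of Atf4, the transcription factor of the integrated stress response, and its part here was not tested. Rars and Wars had no promoter sequence to search. Of the 25 members with one, only Yars and Tars held TGATGCAA on either strand, letters that C/EBP-ATF factors bind. These letters were in 2 of 25 member promoters (8.0%) and in 1.01% of the 17492 promoters searched. Their first base is at 4 from the start in Yars and at -15 in Tars. A match is a description and shows no binding. The windows are chr4:129189703-129189922, plus strand, for Yars and chr15:11399639-11399858, minus strand, for Tars, where the capitals show the reverse complement.
Yars: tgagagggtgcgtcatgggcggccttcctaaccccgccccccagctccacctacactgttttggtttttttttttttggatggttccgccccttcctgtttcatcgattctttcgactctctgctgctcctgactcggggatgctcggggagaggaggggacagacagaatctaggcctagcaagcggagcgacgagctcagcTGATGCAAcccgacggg
Tars: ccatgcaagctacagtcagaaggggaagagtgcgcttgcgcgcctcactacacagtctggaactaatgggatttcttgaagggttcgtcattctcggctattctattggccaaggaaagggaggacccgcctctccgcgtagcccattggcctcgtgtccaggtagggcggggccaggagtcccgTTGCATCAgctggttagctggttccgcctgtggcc

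The other genes of the Atf4 list did not move one way. Of 25 annotated genes 5 were listed, 3 lower and 2 higher. Over all gene models in the authors' adjustment, 2.86% were listed as lower and 3.67% as higher. The serine synthesis enzyme Psat1 fell from 6525 to 3476 normalized counts (-0.91, SE 0.26), and asparagine synthetase Asns had 3501 and 1730 (-1.02, SE 0.35) without passing, per the authors' deposited table. Phgdh, also listed as lower, had 9779 and 4580 (-1.09, SE 0.39) per the authors' deposited table and did not pass. The stress genes Nupr1 (192 to 1418, 2.89, SE 0.72) and Ddit4 (4.89 to 28.4, 2.57, SE 0.79) rose per the authors' deposited table. Atf4 itself was not listed.

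Genes that make rRNA by polymerase I and III held the member with the smallest adjusted p. Gtf3a encodes TFIIIA, the zinc finger protein that binds the 5S rRNA gene and 5S rRNA, and fell from 3954 to 2292 normalized counts (-0.79, SE 0.12, adjusted p = 2.83e-08) per the authors' deposited table. By p it ranked 12 of all 769 gene models. Its exons overlap those of Mtif3 on the opposite strand, which was also lower (-0.72, SE 0.11) per the authors' deposited table, and their reads may be shared, since whether counting used strand was not given in the sources used here. Polr1d, a subunit common to polymerases I and III, had 1384 and 876 (-0.66, SE 0.23, adjusted p = 0.0710) per the authors' deposited table and did not pass. It was the only listed gene of 8 that encode polymerase I subunits. None of 34 further polymerase I and III factors was listed. On GRCm38 Gtf3a lies at chr5:146948657-146955614 (plus strand) and Polr1d at chr5:147077050-147111597 (plus strand). Gtf3a and Polr1d are the closest pair of members, with 121436 bases between them.

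Among nucleolar assembly factors 4 of 5 listed genes fell. Rexo4, a nucleolar exonuclease-family protein, fell from 785 to 528 normalized counts (-0.57, SE 0.10, adjusted p = 1.72e-05) per the authors' deposited table, with the smallest SE of all members. Nop2, which methylates 28S rRNA and acts in large subunit assembly, fell from 4792 to 3208 (-0.58, SE 0.19, adjusted p = 0.0488) per the authors' deposited table. Nol12, an RNA-binding protein of rRNA processing, fell from 464 to 303 (-0.62, SE 0.20, adjusted p = 0.0452) per the authors' deposited table. Nol6, a component of the small subunit processome, fell from 360 to 264 (-0.46, SE 0.15, adjusted p = 0.0488) per the authors' deposited table, the smallest change of the lower members. Utp18, a protein of the same processome bound to U3 RNA, had 1032 and 558 (-0.89, SE 0.32, adjusted p = 0.0899) per the authors' deposited table and did not pass. Nop2 and Nol6 lie just inside the limit of 0.05, and Eif2b5, Farsb and Cars2, at 0.0525, just outside. On GRCm38 Rexo4 lies at chr2:26953563-26964386 (minus strand), Nop2 at chr6:125131909-125144753 (plus strand), Nol12 at chr15:78934933-78943638 (plus strand), Nol6 at chr4:41114427-41124455 (minus strand) and Utp18 at chr11:93859243-93885766 (minus strand).

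Of the DEAD-box RNA helicases, 3 that act in the nucleolus were listed. Ddx18, of large subunit assembly, fell from 1386 to 911 normalized counts (-0.60, SE 0.14, adjusted p = 0.00208) per the authors' deposited table. Ddx56, also of large subunit assembly, fell from 4747 to 2661 (-0.84, SE 0.27, adjusted p = 0.0468) per the authors' deposited table. Ddx47, of pre-rRNA processing, had 1569 and 1059 (-0.57, SE 0.20, adjusted p = 0.0761) per the authors' deposited table. On GRCm38 Ddx18 lies at chr1:121553835-121567989 (minus strand), Ddx56 at chr11:6258919-6267772 (minus strand) and Ddx47 at chr6:135011612-135023776 (plus strand). The ETS core stands within 10 bases after the start of both Nol12 (6 bases in) and Ddx47 (10 bases in, as its reverse complement), which is why these windows are shown. They are chr15:78934733-78934952, plus strand, for Nol12 and chr6:135011412-135011631, plus strand, for Ddx47.
Nol12: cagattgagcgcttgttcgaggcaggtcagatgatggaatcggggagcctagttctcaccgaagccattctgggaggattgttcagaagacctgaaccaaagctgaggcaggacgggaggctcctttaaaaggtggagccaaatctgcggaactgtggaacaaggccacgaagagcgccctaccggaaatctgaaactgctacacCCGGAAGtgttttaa
Ddx47: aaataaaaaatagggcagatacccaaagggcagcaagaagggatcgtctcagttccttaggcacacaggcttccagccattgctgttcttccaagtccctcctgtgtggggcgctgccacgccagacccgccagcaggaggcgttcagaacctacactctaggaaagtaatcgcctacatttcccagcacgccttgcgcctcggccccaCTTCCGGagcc

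Both listed nucleoporins fell and both belong to the Y complex, the ring of the pore scaffold. Nup107 went from 813 to 438 normalized counts (-0.89, SE 0.16, adjusted p = 2.62e-05) per the authors' deposited table. Nup37 went from 868 to 417 (-1.06, SE 0.31, adjusted p = 0.0259) per the authors' deposited table, the largest change of all members and a 2.08-fold lower mean. They were 2 of the 10 Y complex genes, and the other 8 were not listed. Over all gene models in the authors' adjustment, 2.86% were listed as lower. On GRCm38 Nup107 lies at chr10:117750621-117792705 (minus strand) and Nup37 at chr10:88146992-88178390 (plus strand). Each promoter window held the ETS core more than once, with first bases at -10 and 11 from the start in Nup107 (as the reverse complement), and at -83 and 6 in Nup37, whose upstream start of 2 was used. The windows are chr10:117792686-117792905, minus strand, for Nup107 and chr10:88146792-88147011, plus strand, for Nup37.
Nup107: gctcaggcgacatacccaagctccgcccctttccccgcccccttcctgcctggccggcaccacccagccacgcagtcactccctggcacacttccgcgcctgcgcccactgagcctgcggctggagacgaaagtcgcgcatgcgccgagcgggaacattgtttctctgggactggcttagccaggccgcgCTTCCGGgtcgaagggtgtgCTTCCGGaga
Nup37: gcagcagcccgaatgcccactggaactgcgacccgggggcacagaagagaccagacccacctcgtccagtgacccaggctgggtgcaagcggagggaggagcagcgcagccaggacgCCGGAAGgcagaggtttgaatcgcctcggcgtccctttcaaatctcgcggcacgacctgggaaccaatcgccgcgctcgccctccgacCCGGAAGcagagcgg

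**Figure D4:**
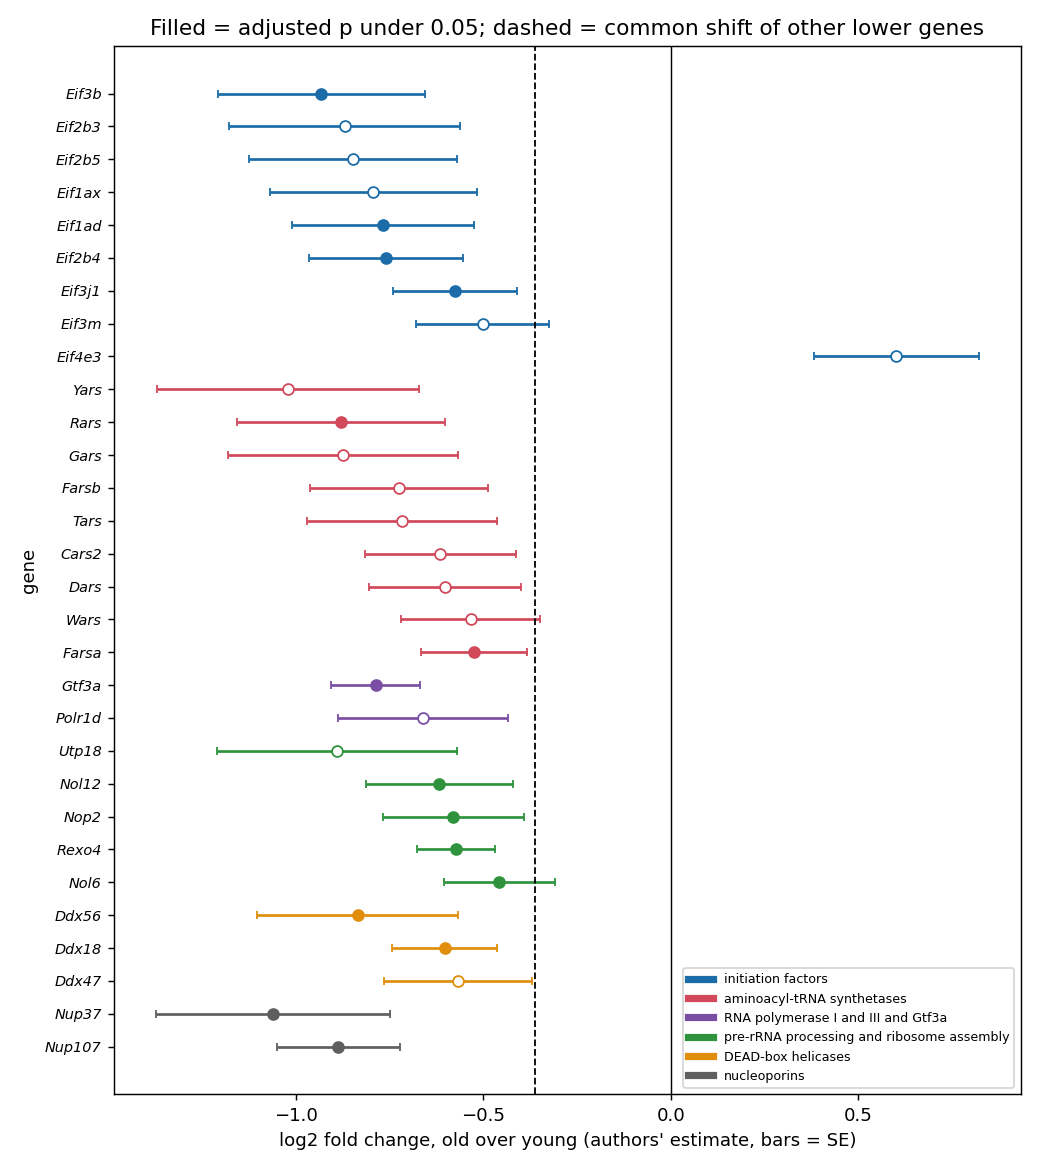
Authors' log2 fold change, old over young, of each of 30 members with its SE as bars, grouped by role; filled symbols passed an adjusted p under 0.05. The solid line marks 0 and the dashed line the common shift of -0.36 fitted to the other lower gene models, with their selection allowed for. All 29 lower genes shown lie to the left of it, from -1.06 in Nup37 to -0.46 in Nol6. The points are not adjusted for selection, so their place does not compare them with the other lower gene models. The same fit to all lower members gave -0.51, and the difference was not tested.

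Promoters of 25 of the 31 members were in the RefSeq table, each 300 bases long (250 before the start and 50 after). Over either strand, CCGGAAG was in 15 of these 25 genes (60.0%), in 71 of 238 other lower listed genes (29.8%) and in 12.9% of all 17492 genes with a promoter. A gene with several starts counted as a match if any of its windows held the letters. The other letters searched showed smaller gaps, in percentage points, between members and the other lower genes. The GC box GGGCGG was in 68.0% of members, 72.7% of the other lower genes and 49.2% of all. The E-box CACGTG was in 16.0%, 14.7% and 8.91%, and its variant CACGCG in 24.0%, 24.4% and 13.7%. CCAAT was in 40.0%, 47.5% and 42.3%, and the GATA letters AGATAA in 4.0%, 7.14% and 11.2%.

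Of the remaining motifs, GCGCATGC (NRF1) was in 12.0% of members, 8.82% of the other lower genes and 3.94% of all, and AAGATGGC (YY1) in 8.0%, 10.1% and 3.57%. TGACGT was in 8.0%, 16.4% and 9.60%, and TGACGTCA, which contains it, in 0 of 25 members, 5.04% and 2.54%. TTCNNGAA was in 4.0%, 7.98% and 8.73%, and TCTCGCGA in 4.0%, 3.78% and 1.59%. TGATGCAA was in 1.26% of the other lower genes. A promoter without a match says only that these letters are not in its window.

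The same pathway outside the symbol rule was listed mostly as lower. For this and the lists that follow, 2.86% of all gene models in the authors' adjustment were listed as lower and 3.67% as higher. Of 97 further ribosome assembly genes 13 were listed, all as lower, and 6 passed, with -0.64 as the median log2 fold change per the authors' deposited table. The processome protein Wdr43 fell from 3421 to 2335 normalized counts (-0.55, SE 0.12), Wdr12 of the PeBoW complex from 4124 to 2241 (-0.88, SE 0.23), Rcl1 from 1876 to 1369 (-0.46, SE 0.13) and the small subunit factor Ltv1 from 1939 to 1160 (-0.74, SE 0.23), per the authors' deposited table. Of 36 other translation factors and regulators 4 were listed and all 4 fell, with a median of -0.78 per the authors' deposited table: the eIF5A hydroxylase Dohh (-0.74, SE 0.19), Denr, which acts in recycling and reinitiation (-0.83, SE 0.22), the ribosome rescue factor Hbs1l (-0.50, SE 0.14) and the release factor Etf1 (-0.89, SE 0.28).

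Of 73 tRNA processing and modification genes 5 were listed, all lower, and 2 passed. These were the RNase P subunit Pop4 (-0.79, SE 0.25) and the Elongator subunit Elp2 (-0.58, SE 0.18) per the authors' deposited table. The tRNA-modifying enzymes Lcmt2 (-0.46, SE 0.15) and Nsun2 (-0.62, SE 0.21) were listed without passing per the authors' deposited table. In the nuclear transport list 2 of 43 genes were listed, Rae1, which fell (-0.35, SE 0.10), and Aaas (-0.72, SE 0.24), which did not pass, per the authors' deposited table. Of 16 Dhx helicases only Dhx15 was listed (-0.37, SE 0.12) per the authors' deposited table, without passing. None of 89 cytosolic ribosomal protein genes and none of 12 genes of Myc and its partners was listed.

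Similar medians over listed genes were found in the parts of the table that most resemble this one. The 28 listed genes for mitochondrial ribosome, import and respiration were all listed as lower, with -0.76 as their median log2 fold change and young means around a median of 2143 per the authors' deposited table. Of 22 listed chaperone, proteasome and ubiquitin genes 21 were lower, with a median of -0.75 and a young median of 4159 for those 21, per the authors' deposited table. Over the 30 members listed as lower the median was -0.74 and the median young mean 2082 normalized counts, and no difference from either group was tested. Selection on adjusted p narrows the range of such medians. The fit of a common shift, which allows for selection, gave -0.51 for the lower members. It gave -0.25 for the mitochondrial genes and -0.43 for the lower chaperone, proteasome and ubiquitin genes. Differences between these fits were not tested.

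Reads of some members may be shared with other genes. Exons of 10 members overlap an exon of another protein-coding gene in the annotation, 9 of them on the opposite strand. Among these pairs are Gtf3a with Mtif3, Eif2b4 with Snx17, Eif3j1 with Spg11, Eif1ad with Banf1, Farsb with Sgpp2, Cars2 with Naxd, Yars with C77080 and Eif3m with Ccdc73. Eif4e3 shares exons with the same-strand gene Gm20696. Of these neighbours only Mtif3 was listed. Stretches of 50 bases were shared with a near-identical copy for 51.4% of Ddx18 (the pseudogene Gm16433) and for 36.6% of Eif3j1 (Eif3j2), so these 2 genes' values are uncertain. The shared part was 17.2% in Eif3m (Gm7658), 11.5% in Eif4e3 (Gm20696), 10.8% in Polr1d (Gm12751) and 3.45% in Rexo4 (Gm14140). Without the 13 members with either kind of sharing, 9 members were lower at an adjusted p under 0.05.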

How the data were processed

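The authors deposited 1 table comparing young (3 libraries) and old sorted cells, where the old column was read as covering all 4 old libraries, which the file does not state. Per the file headers, the authors made its signal values as mean normalized counts per group and over 14 samples. The authors computed log2 fold changes (old over young), as deposited. The standard error and Wald score of each were computed by the authors, per the file headers. The authors computed the p-values from these Wald scores and then adjusted them, per the file headers. The submitters' processing notes name STAR, Bowtie2, DESeq and mm10, without versions. The counting method and annotation were not given in the sources used here. Deposited p and adjusted p together fit a Benjamini-Hochberg adjustment over 11778 gene models, of which 769 are listed.

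Members were taken by symbol, and positions, exon lengths and copies from GENCODE M21 (GRCm38); all 31 symbols matched. In the members, the deposited log2 fold change and the log2 ratio of both means were within 0.0064. The header of the fold change column, log2FcMAP, carries the name of a shrunken (maximum a posteriori) estimate. Whether these values were shrunken is not stated. A gene that passed had an authors' adjusted p under 0.05. No test was run on libraries, since only group means are used here. The common shift was fitted by a normal likelihood truncated at the smallest listed Wald score, 2.72, tested on simulated data; p-values were then recomputed over 11778 with unlisted genes taken as not passing. Motifs were searched on both strands.

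Every member is named except 1, which is not reported here. Adjusted p is given for the 3 smallest per role, for members listed as higher and for the 3 largest changes, and for some others. Up to 4 genes of each pathway list are named, by smallest adjusted p, and Phgdh of the Atf4 list is named besides. Complexes and motifs were chosen after the table was seen, and the members and lists with earlier results of these data known. Python 3.11.15, numpy 2.4.6, pandas 2.3.3 and scipy 1.17.1 were used.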

Additional observations from a re-analysis of the deposited data

Results flagged for a closer look

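In the deposited mean over 14 samples, which includes samples not analysed here, 2 members exceeded both of their group means. Nol6 had a 14-sample mean of 407 normalized counts against 360 in young and 264 in old. Eif4e3 had 304 against 114 and 174. For 23 of the 31 members the 14-sample mean was below both group means, and for 6 it lay between them.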

How the results depend on the processing

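The count of 16 members lower in old became 4 at an adjusted p limit of 0.01 and 30 at 0.1, where 1 member was listed as higher. Under listed-sum scaling 3 members were lower and 1 higher, with a median log2 fold change of -0.55 for those lower. Under the common shift 2 were lower and 1 higher, with a median of -0.48. Fewer members pass as lower under both scalings because each adds a positive constant, taken from listed gene models only, to every log2 fold change. Without members that share exons or stretches, a setting chosen after seeing the data, 9 were lower, since fewer genes enter. Of the 31 single genes, 0 changed sign, which the size of the added constants fixed in advance. Under the common shift 14 lost their call and under listed-sum scaling 13, and Eif4e3 gained a call under each. The other alternatives (filters on low means, readings of the symbol rule, a pseudocount of 1, a weighted mean, and role medians) moved counts by less than 1.5 times and medians by less than 1 SE. No paired analysis was possible because the deposited values are group means, and leaving out single libraries could not be run for the same reason. Depth is unknown, so no counting interval is given.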
